A study of Mus musculus with 18 samples.

Results

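Siglech, Tcf4, Spib, Pacsin1, Runx2, Klk1 and Cd300c are 7 genes associated with plasmacytoid dendritic cells (pDCs) in the mouse, taken by symbol from the 49585 genes of the count table and followed across all 18 libraries. The libraries were made from CD45+ leukocytes of Kaede mice, which carry a photoconvertible fluorescent protein that turns from green to red under violet light, so that cells lit in a tissue can be found again in the lymph node that drains it. All 18 samples carry the Kaede strain label, and the sort protocol, given alike for all of them, kept viable CD45+ Kaede red cells. Inflamed animals had received OT-II CD4+ T cells polarized toward Th1, were immunized with ovalbumin in complete Freund's adjuvant and were then challenged with heat-aggregated ovalbumin in the footpad (joint) or the ear pinna (skin). Red cells still in the tissue are called nonmigrated and red cells in the draining node migrated. The 6 groups of 3 libraries are nonmigrated and migrated cells of the inflamed joint, the same for the inflamed skin, and joint and skin steady-state node cells. The source labels describe the steady-state cells as migrated to the node and name no inflammation for them. Each sample was a pool of several mice of both sexes, so p-values measure the spread between such pools. Whether the steady-state animals received cells or adjuvant is not stated: the skin samples are titled Naive, and the joint samples are titled with PBS and with letters, KG, that the labels do not explain. That the steady-state cells were photoconverted thus rests on the shared sort protocol and the source labels. If some were not, the comparisons with steady-state cells would set migrated cells against node cells at large.

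pDCs are round, plasma cell-shaped leukocytes that sense viral nucleic acid in endosomes through TLR7 and TLR9 and release type I interferon through IRF7. They are rare in resting tissue, reach lymph nodes mainly from the blood, and arise under the E protein TCF4, with SPIB and RUNX2 acting beside it. None of the 7 genes belongs to pDCs alone: Spib and Tcf4 are also used by B cells, Runx2 by bone-forming cells and some lymphocytes, Siglech by some macrophages, Pacsin1 by neurons and Klk1 by glands.

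Depth was 28577566 to 43814403 assigned counts in 12 libraries, and 19239531 to 22528895 in the 6 inflamed skin libraries. Those 6 also share a column naming pattern of their own and have a lower share of reads outside genes (0.0925% to 0.135%, against 0.227% to 0.562%), so for joint against inflamed skin, and for inflamed against steady-state skin, site or inflammation and library handling cannot be told apart. Levels are given in CPM, the usual depth-scaled count, with library sizes adjusted by TMM over the 18 libraries. The leukocyte marker Ptprc was at 1156 to 2531 CPM in every library, and Fscn1, a marker of dendritic cells that leave tissue, at 1160 to 3640 CPM in the migrated libraries but at 2.73 to 5.90 CPM in the steady-state node libraries. A gene is called here when edgeR's quasi-likelihood test gave a Benjamini-Hochberg adjusted p under 0.05 over all genes tested and its log2 fold change was above 1 in size.

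The promoters of Siglech, Cd300c and Klk1 are shown because the first pair of genes had the most similar levels of any members apart from Spib and Pacsin1, whereas Klk1 went the other way in skin migrated cells. The bases before the RefSeq start (build GRCm38.p6, 5′ to 3′ on the gene's strand) cover chr7:55767934-55768177 on the + strand for Siglech, chr11:114960508-114960757 on the - strand for Cd300c and chr7:44225110-44225359 on the + strand for Klk1. Capitals mark CACCTG, a form of the E-box that E proteins bind, and TGTGGT, the core bound by Runt factors, on either strand (CAGGTG and ACCACA on the other).
Siglech: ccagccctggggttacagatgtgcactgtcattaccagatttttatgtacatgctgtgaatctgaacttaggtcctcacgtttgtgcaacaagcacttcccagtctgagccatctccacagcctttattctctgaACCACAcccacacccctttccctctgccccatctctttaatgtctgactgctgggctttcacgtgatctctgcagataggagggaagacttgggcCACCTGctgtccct
Cd300c: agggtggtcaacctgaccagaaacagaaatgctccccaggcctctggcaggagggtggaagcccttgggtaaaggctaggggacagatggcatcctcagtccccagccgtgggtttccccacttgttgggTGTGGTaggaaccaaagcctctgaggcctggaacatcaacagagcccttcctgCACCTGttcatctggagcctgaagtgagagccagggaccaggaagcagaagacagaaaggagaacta
Klk1: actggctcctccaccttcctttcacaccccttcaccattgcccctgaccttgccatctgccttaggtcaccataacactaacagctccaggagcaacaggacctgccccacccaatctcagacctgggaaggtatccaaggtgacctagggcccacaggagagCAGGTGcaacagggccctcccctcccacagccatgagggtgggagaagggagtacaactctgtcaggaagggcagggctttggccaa
Of the 7 members, 6 were searched (Tcf4 was left out) over at most 250 bases each, cut short where they ran into an exon. That left 80 bases for Runx2, 192 for Pacsin1 and 244 for Siglech, whereas the windows behind the percentages below all had 250. The E-box letters were found in 3 of the 6 (Siglech, Cd300c and Klk1), against 17.2% of 32851 promoter windows. The Runt letters were found in Siglech, Cd300c and Pacsin1, against 14.0% of windows. GAGGAA, the purine-rich core bound by ETS factors such as SPIB, was found in 0 of the 6, against 23.3% of windows. The E-box of Siglech starts 14 bases before the end of its window, that of Cd300c 67 bases and that of Klk1 87 bases. These are letter matches in short windows and show neither binding nor use. For Cd300c and Pacsin1 the RefSeq start lies inside the longer gene model used for the counts.

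**Figure D1:**
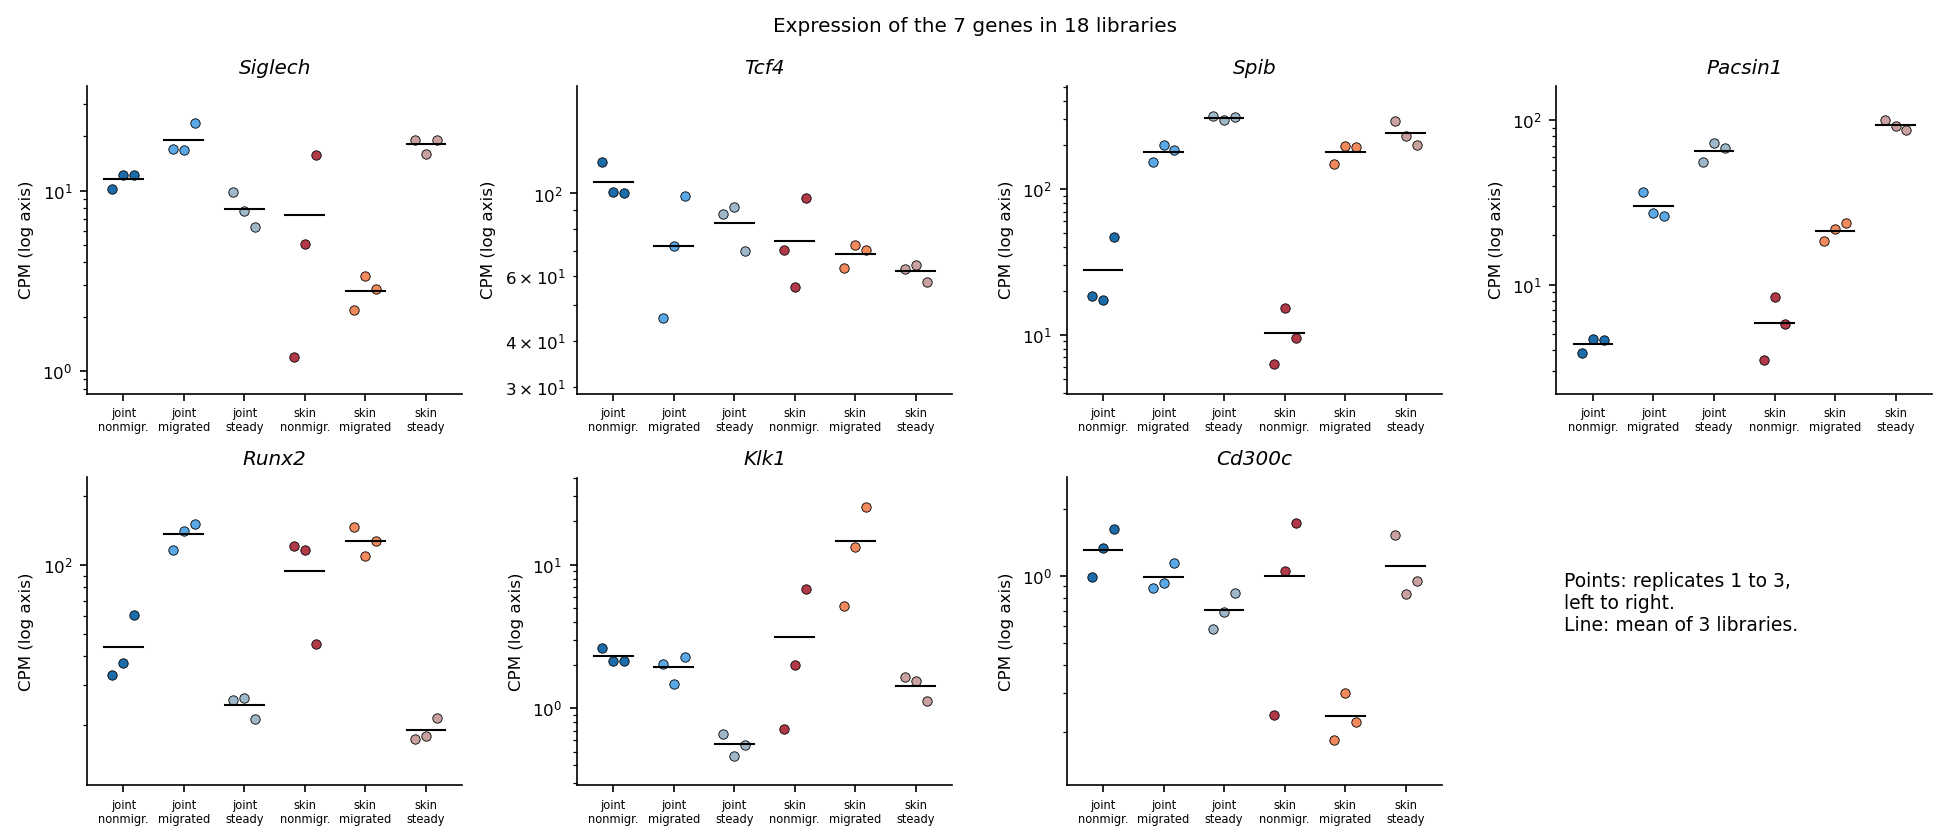
CPM of the 7 genes (log axis) in the 18 libraries by group, with points for replicates 1 to 3 and a line at the mean. Siglech and Cd300c are lowest in skin migrated cells, where Klk1 is highest, while Spib and Pacsin1 are highest in the steady-state nodes and Runx2 in inflamed migrated cells.

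Siglech (ENSMUSG00000051504, chromosome 7, 55768178 to 55778925) encodes a sialic acid-binding lectin of the pDC surface that signals through the adaptor DAP12. It was measured at 17, 16.8 and 23.7 CPM in joint migrated cells, at 10.2, 12.2 and 12.2 CPM in joint nonmigrated cells and at 9.79, 7.68 and 6.32 CPM in joint steady-state node cells. These 3 groups did not overlap. In skin the order was different, with 2.19, 3.35 and 2.84 CPM in migrated cells against 19.1, 15.9 and 19.1 CPM in steady-state node cells. Skin nonmigrated cells were at 1.2, 5.09 and 15.8 CPM, so 1 replicate lay below every migrated library and 1 just below the steady-state range. By mean CPM the order was joint migrated (19.2) and skin steady-state (18), which overlapped, then joint nonmigrated (11.5), joint steady-state (7.93), skin nonmigrated (7.36) and skin migrated (2.79).

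Against its own steady-state node, Siglech was 2.47-fold higher in joint migrated cells (log2 fold change 1.31, SE 0.191, edgeR adjusted p 8.27e-05) and 6.33-fold lower in skin migrated cells (log2 fold change -2.66, SE 0.214, edgeR adjusted p 1.84e-07). The difference between these changes, joint minus skin, was 3.97 on the log2 scale (SE 0.287, edgeR adjusted p 1.22e-05). Between the steady-state groups, Siglech was lower in joint than in skin nodes (log2 fold change -1.20, SE 0.191, edgeR adjusted p 0.00155). Fitted with all 18 libraries together, that steady-state difference was not called (adjusted p 0.225). In bulk libraries, fewer cells of a type and less RNA per cell cannot be told apart.

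Migrated and nonmigrated cells differed less clearly in Siglech. The log2 fold change was 0.73 in the joint (SE 0.571, edgeR adjusted p 0.298) and -1.41 in the skin (SE 0.617, edgeR adjusted p 0.0701). The skin value rested on the scattered nonmigrated replicates: it was -1.91 without replicate 1, which made the call (edgeR adjusted p 0.00245), and -0.18 without replicate 3. DESeq2's Wald test (adjusted p 0.0306) and edgeR without the filter on low counts (adjusted p 0.0410) also called it. Joint migrated cells were 6.88-fold above skin migrated cells (log2 fold change 2.78, SE 0.627, edgeR adjusted p 0.0497), and their libraries did not overlap. That adjusted p is at the edge of the threshold, and it ran from 0.104 to 0.162 when any of the 6 libraries was left out, with log2 fold changes of 2.63 to 2.95. Of 13 alternative settings, 5 kept the call and 8, those 6 fits among them, lost it. In nonmigrated cells the log2 fold change of joint over skin was 0.64 (edgeR adjusted p 0.437), and 1.87 (edgeR adjusted p 0.00707) without skin nonmigrated replicate 3.

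Cd300c (ENSMUSG00000058728, chromosome 11, 114956116 to 114969157, - strand) encodes a receptor of the CD300 family, whose members activate or restrain myeloid cells. Its counts were low, from 4 to 68 per library. It was measured at 0.186, 0.300 and 0.222 CPM in skin migrated cells, from 4, 6 and 5 counts, and at 1.53, 0.834 and 0.947 CPM in skin steady-state node cells. Joint migrated cells were at 0.883, 0.934 and 1.14 CPM and joint steady-state node cells at 0.578, 0.687 and 0.843 CPM, again without overlap. Joint nonmigrated cells were at 0.985, 1.33 and 1.62 CPM, and skin nonmigrated cells at 0.240, 1.05 and 1.72 CPM, the widest spread of the 6 groups, with replicate 1 lowest and replicate 3 highest as for Siglech.

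In skin, Cd300c was lower in migrated cells than in steady-state node cells (log2 fold change -2.19, SE 0.377, edgeR adjusted p 0.000203) and than in nonmigrated cells (log2 fold change -2.09, SE 0.590, edgeR adjusted p 0.00991). The latter was -1.45 and not called without skin nonmigrated replicate 3 (edgeR adjusted p 0.0542). In the joint the same comparisons gave log2 fold changes of 0.52 (edgeR adjusted p 0.174) and -0.41 (edgeR adjusted p 0.487). Its change against the steady-state node differed between joint and skin by 2.70 on the log2 scale (SE 0.486, edgeR adjusted p 0.00404). Joint migrated exceeded skin migrated cells by 2.05 on the log2 scale without overlap, but missed the threshold (SE 0.570, edgeR adjusted p 0.101). DESeq2's Wald test (adjusted p 0.0207) and edgeR on all 18 libraries (adjusted p 0.0381) or on the compared groups alone (adjusted p 0.0290) called it.

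The 9 other CD300 genes tested were all called lower in migrated than in nonmigrated cells, both in the joint (median log2 fold change -5.63, where 18.4% of all genes were called lower) and in the skin (-4.74, against 19.7%). Cd300c was called lower in the skin and not in the joint. Cd300c2 was at 171 to 230 CPM in joint nonmigrated and 1.81 to 5.02 CPM in joint migrated cells. In skin migrated against steady-state node cells, 6 of 8 tested were called higher and 0 lower (21.5% and 15.0% of all genes), with Cd300e at 3.60, Cd300ld at 3.29 and Cd300c2 at 3.21 on the log2 scale, where Cd300c was called lower. In the joint the same comparison called 0 higher and 3 lower (median log2 fold change -0.648, 16.9% and 7.31% of all genes), and Cd300c was not called. The 6 macrophage and monocyte markers summed to 4158 to 5680 CPM in joint nonmigrated, 268.8 to 405.9 CPM in joint migrated and 216.5 to 265.4 CPM in joint steady-state node libraries. In skin the sums were 2212 to 4893, 380.9 to 502.7 and 138.6 to 163.4 CPM. Against the joint steady-state node the marker sum was higher in migrated cells while the summed CD300 family was lower (16.78 to 40.78 against 55.98 to 69.42 CPM). Ly6c2, 1 of the 6 markers, held much of that sum, at 165 to 314 CPM in migrated and 118 to 156 CPM in steady-state node cells. By gene, 0 of the 6 markers were called higher and 1 lower (median log2 fold change -0.378), against 16.9% and 7.31% of all genes. In the other 3 of these comparisons both sums went the same way, and the part of these cells was not tested.

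Tcf4 (ENSMUSG00000053477, chromosome 18, 69343356 to 69689079) encodes the E protein, also called E2-2, that sets and keeps pDC identity. It was the flattest of the 7, with 46.0 to 122 CPM and a highest library 2.66 times the lowest. Levels were 122, 101 and 100 CPM in joint nonmigrated cells, 46.0, 72.2 and 98.3 CPM in joint migrated cells, and 88.2, 92.0 and 70.0 CPM in joint steady-state node cells. In skin they were 70.2, 55.7 and 97.5 CPM in nonmigrated cells, 63.0, 72.4 and 70.2 CPM in migrated cells, and 62.6, 64.2 and 57.8 CPM in steady-state node cells. Joint nonmigrated cells lay above every other group, and the other 5 groups each overlapped the next in order of mean. No comparison called Tcf4. Its log2 fold changes ran from -0.58 (joint migrated against nonmigrated, SE 0.249, edgeR adjusted p 0.0668) to 0.53 (joint against skin nonmigrated, SE 0.250, edgeR adjusted p 0.132).

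Spib (ENSMUSG00000008193, chromosome 7, 44525993 to 44532071, - strand) encodes an ETS factor of pDCs and B cells. It was highest in the steady-state nodes, at 318, 299 and 310 CPM for the joint and 292, 232 and 201 CPM for the skin. Migrated cells of both sites were close together, at 152, 199 and 185 CPM (joint) and 148, 196 and 193 CPM (skin). Cells left in the tissue had far less, 18.5, 17.3 and 47.1 CPM in joint and 6.30, 15.2 and 9.57 CPM in skin nonmigrated cells, and did not overlap with any node group. Spib was thus 6.47-fold higher in migrated than nonmigrated joint cells (log2 fold change 2.69, SE 0.390, edgeR adjusted p 0.000133) and 17.2-fold higher in skin (log2 fold change 4.11, SE 0.423, edgeR adjusted p 1.11e-05). Without joint nonmigrated replicate 3 the joint value was 3.32.

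Between joint and skin migrated cells the log2 fold change of Spib was 2.45e-05 (SE 0.365, edgeR adjusted p 1). Against the steady-state nodes Spib was lower by less than the fold required for a call, with log2 fold changes of -0.76 in the joint (SE 0.146, edgeR adjusted p 0.000777) and -0.40 in the skin (SE 0.146, edgeR adjusted p 0.0273). Joint exceeded skin nonmigrated cells (log2 fold change 1.41, SE 0.388, edgeR adjusted p 0.02), a call lost without joint nonmigrated replicate 3 (0.79, edgeR adjusted p 0.0686) or without skin nonmigrated replicate 1 (1.16, edgeR adjusted p 0.0801).

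B cell markers were set beside Spib because B cells use it too. The 7 markers, summed, were at 3237 to 4993 CPM in steady-state nodes, 778.2 to 1069 CPM in joint migrated cells, 122.5 to 223.6 CPM in skin migrated cells, 108.3 to 268.1 CPM in joint nonmigrated cells and 4.74 to 13.3 CPM in skin nonmigrated cells. Spib per 100 CPM of these markers was 6.14 to 6.90 in every steady-state node library, 14.3 to 25.6 in joint migrated and 16.0 to 17.6 in joint nonmigrated cells, 79.4 to 160 in skin migrated cells and 71.9 to 265 in skin nonmigrated cells. Joint and skin migrated libraries thus overlapped in Spib but not in the summed B cell markers. All 7 markers were called higher in joint than in skin migrated cells (median log2 fold change 2.57). Conventional dendritic cell markers, also summed over 7 genes, overlapped between the migrated groups, at 2040 to 5253 CPM in joint and 3909 to 5501 CPM in skin. The part of either cell type in Spib was not tested.

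**Figure D2:**
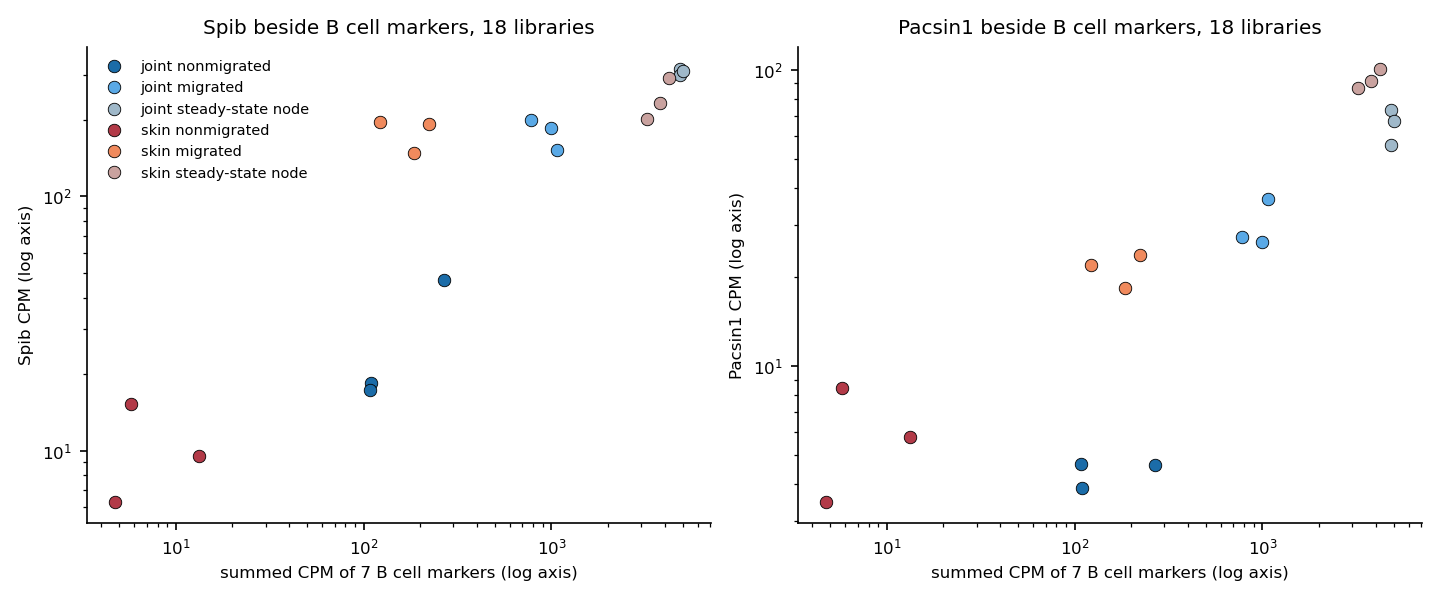
Spib (left) and Pacsin1 (right) in CPM against the summed CPM of 7 B cell markers, 1 point a library, both axes logarithmic. Skin migrated libraries hold as much Spib as joint migrated libraries (148 to 199 CPM over both) at B cell marker sums of 122.5 to 223.6 against 778.2 to 1069 CPM.

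Runx2 (ENSMUSG00000039153, chromosome 17, 44495987 to 44814797, - strand) encodes a Runt factor that pDCs need to leave the bone marrow, better known for bone formation. Inflamed migrated cells had the most, at 117, 141 and 151 CPM in the joint and 147, 110 and 127 CPM in the skin. Steady-state node cells had the least, at 25.8, 26.2 and 21.3 CPM (joint) and 17.5, 17.9 and 21.6 CPM (skin), with no overlap. Nonmigrated cells fell between in the joint, at 33.2, 37.4 and 60.8 CPM, and were scattered in the skin, at 121, 117 and 45.2 CPM.

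Relative to the steady-state node, Runx2 was 5.72-fold higher in joint migrated cells (log2 fold change 2.52, SE 0.140, edgeR adjusted p 1.58e-08) and 6.88-fold higher in skin migrated cells (log2 fold change 2.78, SE 0.142, edgeR adjusted p 3.86e-09). The changes differed by -0.27 on the log2 scale (SE 0.189, edgeR adjusted p 0.386). Migrated exceeded nonmigrated joint cells (log2 fold change 1.64, SE 0.334, edgeR adjusted p 0.00141), whereas in skin the log2 fold change was 0.43 (SE 0.327, edgeR adjusted p 0.275). Joint nonmigrated were lower than skin nonmigrated cells (log2 fold change -1.11, SE 0.331, edgeR adjusted p 0.0279). That call was lost without joint nonmigrated replicate 1 or 2, or skin nonmigrated replicate 1 or 2 (log2 fold changes of -0.888 to -1.005).

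The 7 markers of bone- and cartilage-forming cells summed to 0.628 to 7.07 CPM in every library, and Sp7, the osteoblast factor downstream of Runx2, was at 0 in all 6 inflamed migrated libraries. The related Runx1 was lower in migrated than in nonmigrated skin cells (log2 fold change -2.06, SE 0.123, edgeR adjusted p 2.23e-07). An exon of Runx2 overlaps the antisense gene Runx2os1, and although the counting ran under HTSeq's defaults, which use strand, whether the library kit marked strand was not stated, so reads of the overlap cannot be assigned with certainty.

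Pacsin1 (ENSMUSG00000040276, chromosome 17, 27655509 to 27711482) encodes a membrane-bending adaptor of endocytosis that pDCs use for interferon production. It followed Spib across the libraries. Steady-state node cells were at 101, 92.1 and 87.1 CPM (skin) and 55.6, 73.0 and 67.4 CPM (joint), migrated cells at 36.6, 27.3 and 26.3 CPM (joint) and 18.4, 21.9 and 23.8 CPM (skin). Nonmigrated cells were at 3.86, 4.65 and 4.63 CPM (joint) and 3.48, 8.42 and 5.77 CPM (skin). All groups were apart except the 2 nonmigrated groups, which overlapped.

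Migrated exceeded nonmigrated cells in Pacsin1 by 6.88-fold in the joint (log2 fold change 2.78, SE 0.273, edgeR adjusted p 7.66e-06) and by 3.61-fold in the skin (log2 fold change 1.85, SE 0.269, edgeR adjusted p 0.000135). Migrated cells were lower than steady-state node cells, with log2 fold changes of -1.09 in the joint (SE 0.145, edgeR adjusted p 3.74e-05) and -2.10 in the skin (SE 0.152, edgeR adjusted p 7.04e-08). The difference between these 2 changes was 1.02 (SE 0.206, edgeR adjusted p 0.00828), close to the fold limit: it fell to 0.85 without joint migrated replicate 1, and to 0.96 without joint steady-state replicate 1 or skin migrated replicate 1. Fitted with all 18 libraries the call was also lost, on its p-value (1.01, edgeR adjusted p 0.0578). The joint change itself was -0.991 without joint migrated replicate 3 and -0.999 without joint steady-state replicate 2. All 7 B cell markers were called with the same sign as Pacsin1 in the test of the difference (median 1.88). The part of B cells in the Pacsin1 levels was not tested. The related Pacsin2, expressed in most cells, went the opposite way against the steady-state nodes, higher by 1.08 in the joint (SE 0.0935, edgeR adjusted p 7.05e-07) and by 1.66 in the skin (SE 0.0953, edgeR adjusted p 9.94e-09) on the log2 scale.

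Klk1 (ENSMUSG00000063903, chromosome 7, 44225360 to 44229618) encodes tissue kallikrein, a secreted protease that frees kinins from kininogen. Its highest levels were in skin migrated cells, at 5.12, 13.2 and 25.3 CPM, a wide spread. Skin nonmigrated cells were at 0.720, 1.99 and 6.76 CPM and overlapped them, and skin steady-state node cells were at 1.64, 1.55 and 1.13 CPM. Joint nonmigrated cells were at 2.65, 2.13 and 2.14 CPM, joint migrated cells at 2.03, 1.47 and 2.29 CPM and joint steady-state node cells at 0.667, 0.466 and 0.555 CPM.

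Klk1 was higher than in the steady-state node in skin migrated cells, 10.3-fold (log2 fold change 3.36, SE 0.446, edgeR adjusted p 2.13e-05), and in joint migrated cells, 3.49-fold (log2 fold change 1.81, SE 0.470, edgeR adjusted p 0.00601). Without skin migrated replicate 3 the skin value was 2.65. Skin migrated exceeded skin nonmigrated cells (log2 fold change 2.19, SE 0.678, edgeR adjusted p 0.0160). That value was 3.42 without skin nonmigrated replicate 3, and it was not called without skin nonmigrated replicate 2 (1.95, edgeR adjusted p 0.0550), without skin migrated replicate 3 (1.51, edgeR adjusted p 0.0869) or with only the 2 groups fitted (edgeR adjusted p 0.0632). Joint and skin migrated cells did not overlap, with a log2 fold change of -2.90 that missed the threshold (SE 0.686, edgeR adjusted p 0.0590) but passed it without the filter on low counts (edgeR adjusted p 0.0141) and with DESeq2's Wald test (adjusted p 0.000514).

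The ratio of Siglech to Klk1 made the same contrast within each library. It was 0.112 to 0.427 in the 3 skin migrated libraries and 1.67 to 16.9 in the other 15. Siglech to Cd300c was 11.2 to 12.8 in the skin migrated libraries, inside the range of 4.83 to 20.9 elsewhere. Klk1 has 13 close relatives in a cluster of glandular kallikreins, of which 10 to 12, depending on the group, had 3 counts or fewer in every library of the group. Klk1b27 was at 0.0600 to 0.598 CPM. Reads that aligned to several places were left out by the counting, so reads shared among these copies are missing from Klk1 to an unknown degree.

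**Figure D3:**
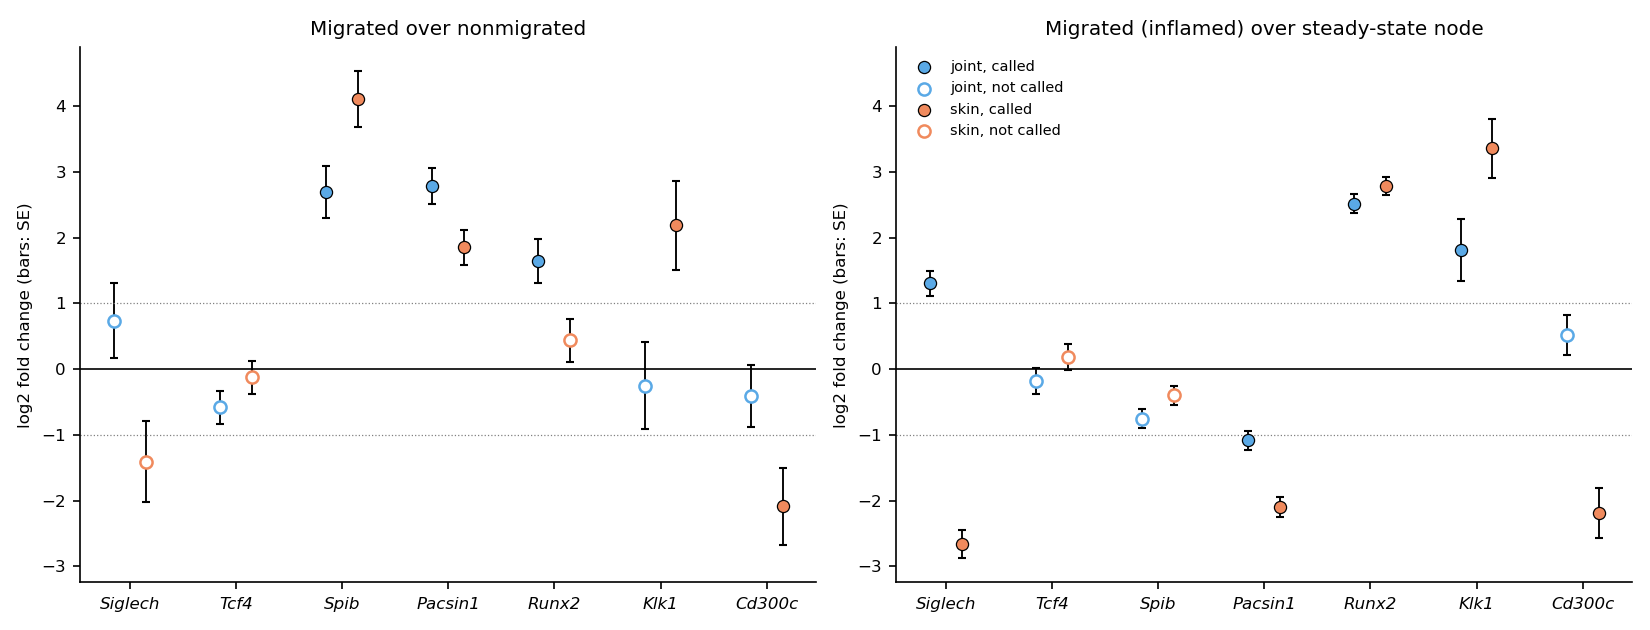
Log2 fold changes with SE for the 7 genes, migrated over nonmigrated cells (left) and inflamed migrated over steady-state node cells (right), with joint and skin side by side. Filled points were called and open points were not; dotted lines mark the fold limit of 1. Siglech is at 1.31 (joint) and -2.66 (skin) in the right panel, on opposite sides of 0.

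Counted by comparison, the 7 genes did not move together. Between migrated and nonmigrated joint cells, 3 of 7 were called higher and 0 lower (Spib, Pacsin1 and Runx2), where 16.0% of the 16777 genes tested were called higher and 18.4% lower. In skin, 3 were called higher (Spib, Pacsin1 and Klk1) and 1 lower (Cd300c), against 15.7% and 19.7% of all genes. Spib and Pacsin1 were called higher in both. These comparisons have many calls, and nothing further is read from the counts of 7.

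The test of whether migration changed a gene differently in joint and skin called 0 of the 7 with edgeR (adjusted p 0.121 to 0.439), 6 of 7 with an unadjusted p under 0.05 (4407 of 16777 over all genes), and DESeq2's Wald test also called 0. Over all genes 6.13% were called. Leaving out skin nonmigrated replicate 1 called Siglech (2.64), and leaving out skin nonmigrated replicate 3 called Runx2 (1.53) and Klk1 (-3.67). Between joint and skin nonmigrated cells, Spib was called higher and Runx2 lower, against 5.45% and 8.86% of all genes. Between joint and skin migrated cells only Siglech was called higher and none lower, against 0.560% and 0.578% of all genes.

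Against the steady-state nodes, 3 were called higher in joint migrated cells (Siglech, Runx2 and Klk1) and 1 lower (Pacsin1), where 16.9% and 7.31% of the 17107 genes tested were called higher and lower. In skin migrated cells, 2 were called higher (Runx2 and Klk1) and 3 lower (Siglech, Pacsin1 and Cd300c), against 21.5% and 15.0%. Between joint and skin steady-state nodes Siglech was called lower and 0 were called higher, against 0.655% and 3.23%. The change against the steady-state node differed between the sites for 3 of 7, Siglech, Pacsin1 and Cd300c, each with the joint change the more positive, against 6.11% of all genes. Joint and skin changes each use their own controls, and the 6 skin migrated and nonmigrated libraries are those with the lower depth.

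Per kilobase of exon, Spib was the most abundant of the 7 in node cells, with group means of 62.3 to 108 CPM per kb, and Cd300c the least in 3 of the 6 groups, down to 0.221 CPM per kb in skin migrated cells. Tcf4, whose gene model has 27382 exonic bases, came to only 2.25 to 3.94 CPM per kb. Siglech ranged from 0.825 CPM per kb in skin migrated to 5.66 CPM per kb in joint migrated cells.

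The genes whose levels were most like each member were ranked by the Pearson correlation of log2(CPM + 1) over the 18 libraries, among 16066 genes. For Siglech they were D13Ertd608e (r = 0.857), Cd300c (0.8), Pnck (0.768), Cox6a2 (0.764), Zfyve28 (0.759), Slc29a2 (0.757), Gm11525 (0.748), Abcb8 (0.746), Gm33167 (0.741) and Gm15764 (0.738). The points are groups of 3 replicates that share depth and handling, so these are descriptions. Cd300c, a member, was thus second among all genes. Its r with Siglech was 0.923 in the 6 inflamed skin libraries and 0.391 in the other 12, Spearman's rho was 0.655, and r was 0.692 without the 2 libraries farthest from the median Siglech level. D13Ertd608e kept 0.774 and 0.750 in the same split, and Pnck 0.741 and 0.879. Cox6a2 was at 0.801 in the 6 inflamed skin libraries but at 0.455 in the other 12.

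D13Ertd608e, at the head of that list, was measured at 0.924, 1.75 and 1.18 CPM in joint migrated cells, 0.326, 0.350 and 0.576 CPM in skin migrated cells and 0.0, 0.409 and 0.676 CPM in skin nonmigrated cells. Cox6a2, a cytochrome oxidase subunit known from muscle and pDCs, was at 1.09, 2.08 and 1.72 CPM in joint migrated and 0.373, 0.4 and 0.310 CPM in skin migrated cells. In skin nonmigrated cells Cox6a2 was at 0.240, 0.117 and 1.61 CPM, from 4, 2 and 31 counts. The genes set beside Siglech were picked by correlation with it over these libraries, so a shared order follows in part from that choice. Replicate 3 of the skin nonmigrated group held the most Siglech, D13Ertd608e, Cd300c and Cox6a2 of its group. The same library had the least of the conventional dendritic cell markers in its group (417.7 against 705.6 and 1048 CPM), the least of 4 keratinocyte markers (26.3 against 148.4 and 300.6 CPM) and the most of the macrophage and monocyte markers (4893 against 3030 and 2212 CPM). The part of these cells in its Siglech level was not tested.

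**Figure D4:**
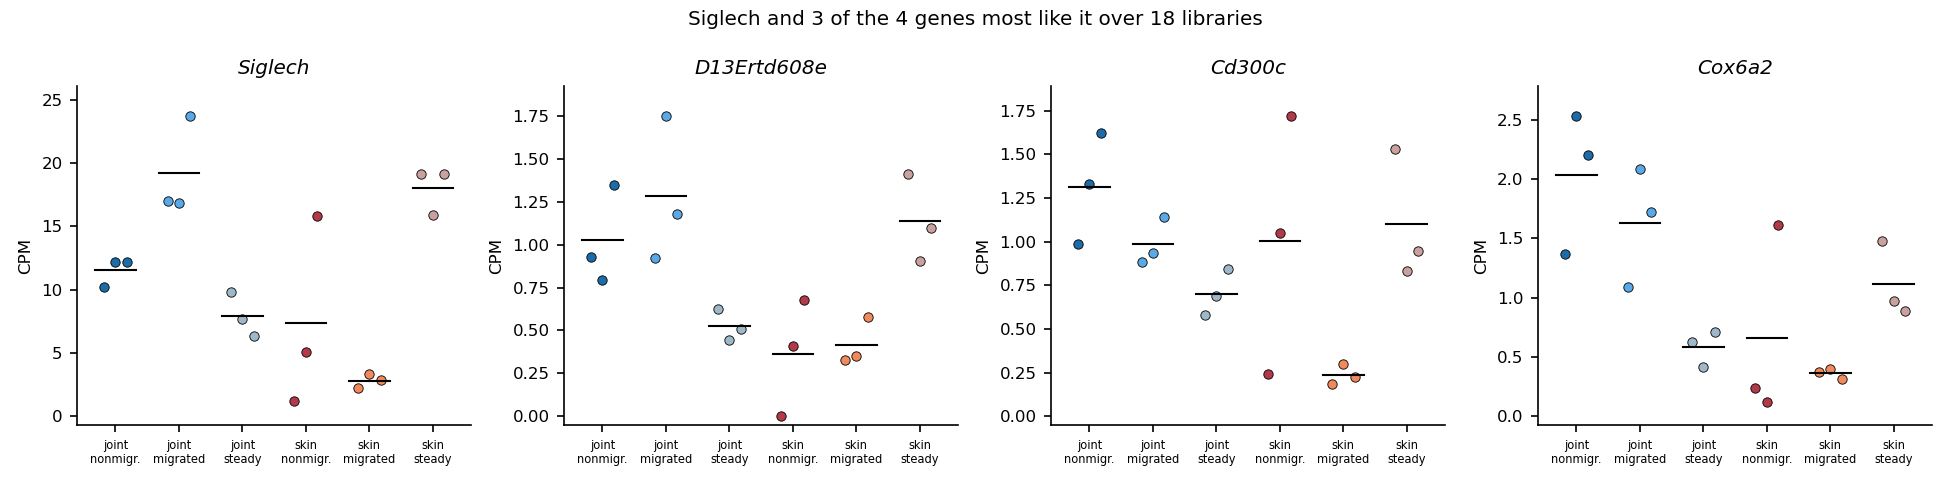
CPM of Siglech and of 3 of the 4 genes with the highest correlation to it, by group, with points for replicates 1 to 3 and a line at the mean. The 3 genes were picked by this correlation, so a pattern shared with Siglech follows in part from that choice. All 4 genes shown are lower in skin migrated than in joint migrated libraries and highest in replicate 3 among the skin nonmigrated libraries. Pnck, also among the 4 most correlated genes, is not shown.

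Spib and Pacsin1 correlated at r = 0.897 with each other. The genes most like Spib were Pold1, 9430015G10Rik and Taf15 (r = 0.979 to 0.983), and those most like Pacsin1 were Patj, Ccar2 and Rapgef4 (0.984 to 0.993). For Runx2 they were Psrc1, Esm1 and Ermn (0.975 to 0.976), for Klk1 Gm8355, Smim10l1 and Eps15 (0.860 to 0.888), for Tcf4 Zdhhc14, Trp53inp2 and Wdr7 (0.811 to 0.877), and for Cd300c Pcsk7, Siglech and Zfp839 (0.769 to 0.806). Other pairs of members were weakly or inversely related, as with Siglech and Runx2 (r = -0.41) or Siglech and Klk1 (-0.32).

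Of 20 further genes associated with pDCs, 19 could be tested. Against the steady-state node, 5 were called higher and 5 lower in joint migrated cells (median log2 fold change 0.43, against -0.02 for all genes), and 5 higher and 7 lower in skin migrated cells (-0.80, against 0.00157). Over all genes 16.9% were called higher and 7.31% lower in the joint, and 21.5% and 15.0% in the skin. Ptprs, a phosphatase receptor, was among those higher in both (2.75 and 2.50). So was Lag3 (2.72 and 2.17), an inhibitory receptor also found on activated T cells. Every migrated library also held more Maged1 than any steady-state node library. Those lower in both included Ly6d (-2.42 and -3.89), shared with B cells, and the gut-homing receptor Ccr9 (-1.53 and -3.72), shared with T cells. Fcrla was lower too, at 31.1 to 43.1 CPM in joint migrated and 156 to 202 CPM in joint steady-state node cells. In skin migrated and steady-state node cells Fcrla was at 8.84 to 13.1 and 103 to 141 CPM. Cox6a2 rose in the joint (1.5, SE 0.325, edgeR adjusted p 0.00181) and fell in the skin (-1.60, SE 0.380, edgeR adjusted p 0.00238), as Siglech did. The skin migrated libraries held only 8, 8 and 7 counts of Cox6a2. The difference between its changes was 3.10 (SE 0.4995, edgeR adjusted p 0.00210). Ccr9 (2.19), Ly6d, Fcrla and Kmo were the other 4 of 5 called in that test of the difference, and none was called the other way. Over all genes 6.11% were called in either direction. All 7 B cell markers were called with the same sign (median 1.88), and the part of B cells in these calls was not tested.

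Between migrated and nonmigrated cells, 5 of the 19 were called higher and 2 lower in the joint, and 3 higher and 4 lower in the skin. Over all genes 16.0% were called higher and 18.4% lower in the joint, and 15.7% and 19.7% in the skin, so these shares were near the background or below it except for the higher calls in the joint. Lower in both was Lair1, a collagen receptor of many leukocytes, at -4.10 in the joint and -2.28 in the skin on the log2 scale, and Dntt, which encodes terminal transferase, was lower in the joint at -2.85. Bst2, the surface antigen read by the pDC antibody PDCA-1 and induced in other cells by interferon, was called in neither (-0.58 and -0.71). Between joint and skin migrated cells, Ccr9 (1.55), Fcrla (1.85) and Ly6d (2.16) were called higher in the joint and 0 of the 19 lower. Over all genes the shares were 0.560% and 0.578%. All 7 B cell markers were called higher there too (median log2 fold change 2.57), and the part of B cells in these calls was not tested. Summed over the 20 genes, levels were 547.2 to 1008 CPM in all libraries.

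Among 17 further transcription factors of pDC development and their antagonists, Irf8, shared with conventional dendritic cells, was called in none of the migrated comparisons, with 162 to 482 CPM in all libraries. Irf7, the factor that switches on interferon genes, was lower in migrated than nonmigrated cells, with log2 fold changes of -2.005 in the joint (SE 0.187, edgeR adjusted p 5.42e-06) and -3.19 in the skin (SE 0.196, edgeR adjusted p 2.72e-07). Id2, which opposes E proteins such as TCF4 and marks conventional dendritic cells, was higher in migrated than in steady-state node cells, by 2.67 in the joint (SE 0.181, edgeR adjusted p 9.17e-08) and 3.198 in the skin (SE 0.185, edgeR adjusted p 1.08e-08). Over the list, 4 were called higher and 2 lower against the joint steady-state node, and 5 higher and 2 lower against the skin steady-state node, not far from the 16.9% and 7.31%, and 21.5% and 15.0%, of all genes. Mef2c and Bcl11a, both also B cell factors, were lower in each.

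Of 16 genes of endosomal nucleic acid sensing and interferon signaling, none was called higher in migrated cells in any comparison with nonmigrated or steady-state node cells. Against nonmigrated cells, 5 were called lower in the joint and 6 in the skin, against 18.4% and 19.7% of all genes. Of the 6 macrophage and monocyte markers, 5 were called lower in each (median log2 fold changes -6.21 and -4.55), and their part in these values was not tested. Tlr7 led, at -3.56 (SE 0.336, edgeR adjusted p 5.81e-06) and -3.39 (SE 0.340, edgeR adjusted p 9.24e-06), followed by Unc93b1, which carries these receptors to endosomes, at -2.69 and -1.94. Tlr7 was also lower in migrated than in steady-state node cells (-1.98 and -1.83). Tlr9 was called in none of these 4 comparisons and was measured at 38.9 to 97.4 CPM. Of the 20 type I and III interferon genes, 12 had 0 counts in all 18 libraries and 18 never exceeded 3 counts. Ifnb1 was at 4, 5 and 10 counts in skin nonmigrated cells and at 4, 0 and 0 counts in joint nonmigrated cells. It had 0 counts in every migrated and steady-state node library. Ifnk reached 4 counts, so interferon transcripts were at or near the floor of detection.

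In the Siglec family and its adaptors, Tyrobp, which encodes DAP12, was lower in migrated than nonmigrated cells (-2.54 in the joint and -2.12 in the skin) but higher than in steady-state node cells (1.46 and 3.05). Its change against the steady-state node differed between sites by -1.60 (SE 0.258, edgeR adjusted p 0.00216), the opposite sign of that of Siglech. Cd22, a B cell Siglec, was higher in migrated than nonmigrated cells by 3.31 and 2.75. Siglec1 and Cd33, found on macrophages and other myeloid cells, were lower, with log2 fold changes of -5.54 and -5.60 in the joint and -5.18 and -6.40 in the skin.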

How the data were processed

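RNA-seq was analysed in 18 libraries, 6 groups of 3 replicates, each a pool of mice. The authors trimmed reads with Trim Galore, aligned them to mm10 with TopHat2 and counted them over Ensembl 87 genes with HTSeq. They deposited raw counts per gene, and versions of these tools are not given in the sources used here. HTSeq leaves out reads that align to several places or overlap several genes, which lowers the counts of close paralogs, and its defaults, which the authors used, count by strand. Whether the library kit marked strand is not given in the sources used here. The deposited table held 49585 genes, of which 18650 had no count, and 5 summary rows were removed. Gene positions came from GENCODE M21, which matched 49326 genes, and upstream sequences from RefSeq (GRCm38.p6). No column lacked a sample.

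Counts were tested with edgeR 4.0.16 in R 4.3.3 by the quasi-likelihood method, with TMM scaling and filterByExpr at a minimum count of 10, in a fit of the 12 inflamed libraries and a fit of the 12 node libraries. All 7 members passed the filter. P-values were adjusted by Benjamini-Hochberg over all genes tested, and tests were two-sided. Calls required an adjusted p under 0.05 and an absolute log2 fold change above 1. Each SE was derived from the estimate and its F statistic, as the estimate's size over the root of F. The script was tested on simulated data. Alternatives were DESeq2 1.42.0 (Wald test and size factors), no filter, a threshold of 0.001, a replicate block, fits of the compared groups alone or of all 18 libraries, and leaving out each replicate. The text names all 7 members, the 10 genes most like Siglech and the 3 most like each other member (mean of at least 10 counts, 16066 genes), up to 3 genes a direction from each gene list, and genes of the members' families. Markers and genes named because they were not called were chosen after their values were seen. The members and lists were chosen with earlier results of these data known.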

Additional observations from a re-analysis of the deposited data

Results flagged for a closer look

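The change from steady-state to inflamed node cells differed between joint and skin, in a test of the difference itself, for 3 of the 7 genes. For Siglech the joint change exceeded the skin change by 3.97 on the log2 scale (edgeR adjusted p 1.22e-05), and leaving out any of the 12 libraries kept the call. For Cd300c the difference was 2.70 (edgeR adjusted p 0.00404), from 4 to 6 counts in each skin migrated library, and it ran from 2.45 to 2.95 when a library was left out. For Pacsin1 it was 1.02 (edgeR adjusted p 0.00828), at the edge of the fold limit. All 7 B cell markers were called with the same sign in this test (median 1.88). The part of B cells in the Pacsin1 value was not tested. The 3 skin migrated libraries have lower depth and a column naming pattern that the other 9 node libraries lack, so site and library handling cannot be told apart in these values. Each change also uses its own steady-state controls, titled Naive for skin and with PBS and KG for the joint. Between these controls Siglech was lower in the joint (log2 fold change -1.20, edgeR adjusted p 0.00155), though not called with all 18 libraries fitted (edgeR adjusted p 0.225).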

How the results depend on the processing

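Of 888 recomputed member fold changes, 820 kept their direction and their side of the threshold, 36 lost a call, 22 gained one and 10 changed sign. Leaving out 1 library gave 3 to 3 members called for joint migrated against nonmigrated (main count 3), 3 to 5 for skin (4), 0 to 3 for joint against skin nonmigrated (2), 0 to 0 for joint against skin migrated (1), 0 to 2 for the difference in migration change (0), 3 to 4 for joint migrated against steady-state (4), 5 to 5 for skin (5), 1 to 1 for joint against skin steady-state (1) and 2 to 3 for the difference in node change (3). Requiring an adjusted p under 0.001 left 2 for skin migrated against nonmigrated, 0 for each of the 3 comparisons of joint with skin, and 1 for the difference in node change. For joint against skin migrated, DESeq2's Wald test called 3, no filter 2, the compared groups alone 3 and all 18 libraries 3. For joint against skin steady-state the same settings gave 2, 2, 2 and 0. The compared groups alone gave 2 for skin migrated against nonmigrated, where Klk1 lost its call and Cd300c did not enter the test, and 0 for joint against skin nonmigrated. With the replicate block, 1 gene (Klk1, -2.69, edgeR adjusted p 0.00919) was called in the difference in migration change. Between joint and skin migrated cells it lost Siglech (2.73, edgeR adjusted p 0.0585) and gained Klk1 (-2.64, edgeR adjusted p 0.00589), and it changed no other call. Whether same-numbered samples came from the same mice is not stated, and the main fits did not pair them. Deviations of same-numbered samples correlated at 0.021 to 0.254 between nonmigrated and migrated cells and at -0.185 to -0.021 between migrated and steady-state cells. Samples matched their own number best for 2 of 3 in the inflamed joint, 3 of 3 in the inflamed skin and 0 of 3 in each node pair. Signs changed for Klk1 in joint against skin nonmigrated with the block (0.040) and when a library was left out (-0.93 without skin nonmigrated replicate 1 to 0.76 without replicate 3). They changed for Spib in joint against skin migrated with the compared groups alone (-0.0037), all 18 libraries (-0.0023), without joint migrated replicate 2 (-0.081) and without skin migrated replicate 1 (-0.11). They changed for Tcf4 in that comparison when a library was left out (-0.18 to 0.34, the lowest without joint migrated replicate 3), in skin migrated against nonmigrated (-0.29 to 0.12, the highest without skin nonmigrated replicate 3) and in joint migrated against steady-state (-0.46 to 0.031, the highest without joint migrated replicate 1), and for Cd300c in joint against skin nonmigrated (-0.083 to 1.01, the lowest without skin nonmigrated replicate 1). None of the 10 was called, and the cause of these changes was not tested. By Spearman's rho Cd300c ranked 29 among genes like Siglech, and over the 6 group means 102, while D13Ertd608e ranked 1 and 7. Depth limits Cd300c most.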
